A study of Homo sapiens with 6 samples.

Results

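The genes described here encode 3 mitogen-activated protein kinases (MAPKs), MAPK8, MAPK9 and MAPK14, and 3 MAP2 kinases (MAP2Ks), MAP2K3, MAP2K4 and MAP2K7. They were taken by symbol, with no measured value used in the choice, although earlier results of these data were known. They make up 6 of the 2723 genes for which the usage of 2 polyadenylation sites (PASs) in the 3′ UTR was compared. The cells were HL-60, a human promyelocytic leukemia line, stably infected with a lentivirus. In OE-CFIm25 cells the vector carried the coding sequence of CFIm25, a subunit of the cleavage factor CFIm of the polyadenylation machinery, under the EF-1α promoter. OE-control cells carried the empty vector. Both groups held 3 samples, both were selected with puromycin, and both had been in 3 nM PMA, a phorbol ester that drives HL-60 toward macrophages, for 6 h. The labels do not say whether the samples of a group came from separate cultures or separate infections. The labels call the cells promyeloblasts from blood, and this could not be set against marker genes, since the deposited values hold no expression levels.

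MAP kinases act in a chain. A MAP3 kinase phosphorylates a MAP2K, the MAP2K phosphorylates a MAPK on a threonine and a tyrosine, and the MAPK then phosphorylates transcription factors and further kinases. MAPK8 and MAPK9 encode JNK1 and JNK2, which phosphorylate c-Jun, and MAPK14 encodes p38α, a kinase of the stress and cytokine response. MAP2K7 activates JNKs, MAP2K3 activates p38 kinases, and MAP2K4 can activate both. In monocytes and macrophages these chains lie downstream of phorbol ester, cytokine and Toll-like receptor signals. A gene with more than 1 PAS in its last exon makes mRNAs with the same coding sequence and 3′ UTRs of different length.

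In QuantSeq FWD, oligo(dT) primes reverse transcription at the poly(A) tail. The reverse read (read 2), which the authors used, therefore marks where an mRNA ended. The 2 most used PASs of each last exon were compared as the proximal PAS (pPAS) and the distal PAS (dPAS). The authors' deposited table gives 1 RED per gene, the log2 of dPAS over pPAS reads of OE-CFIm25 after that of OE-control is taken off. A positive RED therefore stands for a larger share of the long 3′ UTR in OE-CFIm25 and a negative RED for a larger share of the short one. An adjusted p stands beside each RED, with no value per sample, no error and no reads per PAS. The sample-to-sample spread and the depth behind each RED are thus unknown, RED says nothing of the amount of mRNA, and all values below are descriptions with no test beyond the deposited adjusted p. Over the 6 libraries together, which carry numbers with no condition, 3525582 to 3845872 reads ended at annotated PASs of genes (median 3603012). A gene counted as called where its RED was beyond log2(1.2), which is 0.26, in either direction and its adjusted p was under 0.05.

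All 12 PASs fell within last-exon 3′ UTRs, downstream of a stop codon in the same exon (GENCODE, on hg19, which is GRCh37). A PAS is usually preceded by the poly(A) signal AATAAA or ATTAAA. Genomic A-rich sequence just after a position can bind oligo(dT) in place of a tail, so both were read for each PAS. The genes whose RED was past the size threshold are shown first, because the results turn on them. For MAPK9 the windows run 5′ to 3′ on the minus strand of chromosome 5, with the poly(A) signal in capitals. The pPAS window is chr5:179662778-179662807 and ends at the PAS, and the dPAS window is chr5:179660631-179660660 and ends 10 nt before the PAS.
MAPK9 pPAS: tAATAAATAAAaatatatagcttttcttag
MAPK9 dPAS: tatAATAAAatatattatgtgtgttttggt
For MAP2K7, on the plus strand of chromosome 19, the dPAS window (chr19:7979333-7979362) again ends at the PAS with the signal in capitals. The pPAS of MAP2K7 had no such signal, and its window (chr19:7978616-7978645) is shown instead with the 10 nt up to the PAS in lower case and the 20 nt after it in capitals, where an A-rich stretch follows.
MAP2K7 pPAS: aatcaagtggACAAGAAAAAATAACAAAAC
MAP2K7 dPAS: gcttgagAATAAAccccttccttttcttcc
Neither PAS of MAP2K3, on the plus strand of chromosome 17, had a signal. Their windows (chr17:21218446-21218475 and chr17:21218512-21218541) are set out in the same way, with the 20 nt after the PAS in capitals.
MAP2K3 pPAS: tatttttttgAAAAAACGACTGCCCATCCC
MAP2K3 dPAS: ttgctgttttAATTAAAAAAAAAAAAAAAA
The other dPASs with no signal, on the plus strand, were that of MAPK14 (chr6:36078907-36078936), shown with the 20 nt after the PAS in capitals, and that of MAPK8 (chr10:49644422-49644451), shown up to the PAS and with nothing in capitals because no signal was found.
MAPK14 dPAS: aatggttgggAAAGAAAAAAAAAGAAGTAG
MAPK8 dPAS: tatttctctattactgaacttttcctaagt

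None of the 6 kinase genes was called, against 10 called genes in the whole table (0.367%). RED was above 0 in each of these 3 MAPKs (median 0.09, mean 0.227) and below 0 in 2 of these 3 MAP2Ks (median −0.46, mean −0.27). Over the 6 genes RED ran from −0.52 to 0.58 with a median of 0.05, and the median of all 2723 genes was −0.03. Over the table, 53.3% of genes had a RED below 0 and 45.7% one above 0. In size, 3 of the 6 were past the RED threshold. MAP2K7 and MAP2K3 were past it on the negative side, as were 27.1% of all genes, and MAPK9 was past it on the positive side, as were 21.7%. A RED past the threshold in size was thus common in the table, and these counts of kinase genes were near the shares over all genes. Which test gave the p is not settled, because the header of the column says Fisher and the methods say DEXSeq.

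**Figure D1:**
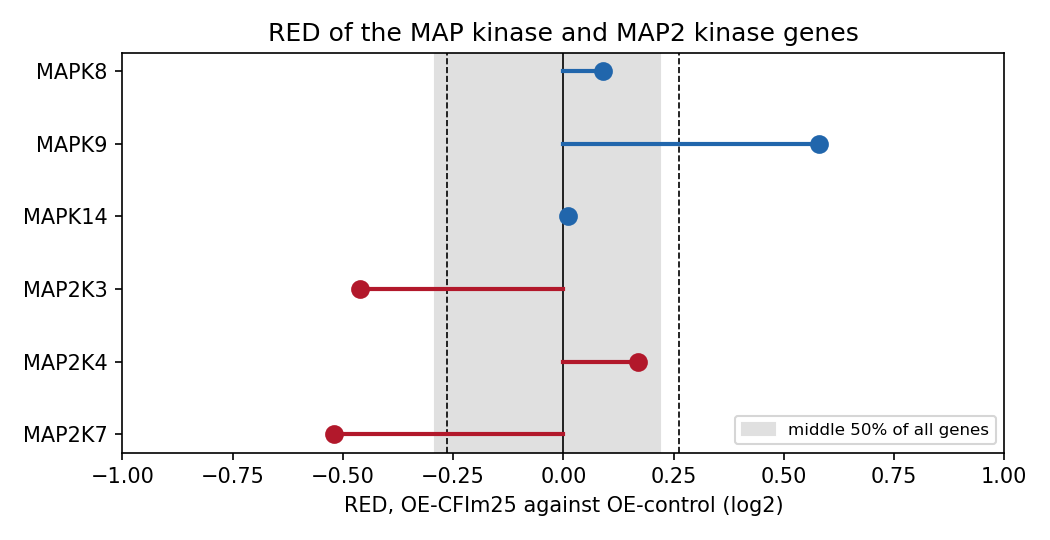
RED (log2) of the 3 MAPK genes (blue) and 3 MAP2K genes (red) in the authors' deposited table, 1 value per gene with no error. The grey band is the range from the lower to the upper quartile of all 2723 genes (−0.29 to 0.22) and the dashed lines mark the RED threshold of 0.26 in both directions. MAPK9 (0.58), MAP2K3 (−0.46) and MAP2K7 (−0.52) lie outside the lines, and MAPK8, MAPK14 and MAP2K4 lie between them.

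Of the JNK genes, MAPK9 (JNK2) had the highest RED of the 6 kinases, at 0.58 in the authors' deposited table. The dPAS to pPAS ratio was thus 1.49-fold higher in OE-CFIm25. Its adjusted p was 0.808, and 728 genes (26.7%) had a lower one. Only 168 genes (6.17%) had a higher RED than MAPK9, so its shift was large for the table while its p lay in the part of the range where nothing was called. The pPAS of MAPK9, at 179662778 on the minus strand of chromosome 5, and the dPAS, at 179660621, lie in exon 12 of 12. They are 606 and 2763 nt past the stop codon, so that the short 3′ UTR is 21.9% of the long one. The 2157 nt between them make MAPK9 the gene with the widest pair of PASs among the 6, and 81% of all genes had a narrower pair.

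MAPK8 (JNK1) had a RED of 0.09, a ratio 1.06-fold higher in OE-CFIm25, and the authors' adjusted p was 0.991. Its size was below that of most genes, since 19.5% had a RED nearer to 0. Its PASs (chromosome 10, plus strand, 49643920 and 49644451) stand in exon 12 of 12, 848 and 1379 nt past the stop codon. The short 3′ UTR of MAPK8 is 61.5% of the long one, and the PASs are 531 nt apart.

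MAPK14 (p38α) had the RED nearest 0 of the 6 kinases. The authors' deposited table gives it a RED of 0.01, a 1.01-fold ratio, with an adjusted p of 0.998, and 1.07% of genes had a RED nearer to 0. In exon 12 of 12 on chromosome 6, plus strand, the PASs of MAPK14 were 36078535 and 36078916, 2311 and 2692 nt past the stop codon. It is the gene with the longest short 3′ UTR among the 6, and the 381 nt between its PASs leave 85.8% of the long 3′ UTR in the short isoform.

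Of the MAP2Ks, MAP2K7, the activator of JNKs, had the lowest RED and the lowest adjusted p of the 6 genes. Its RED in the authors' deposited table was −0.52, a ratio of dPAS to pPAS that was 1.43-fold lower in OE-CFIm25. The adjusted p for MAP2K7 was 0.259, and 57 genes (2.09%) had a lower one. In RED, 280 genes (10.3%) were below it. A RED smaller in size was listed for 80.6% of genes. MAP2K7 therefore ranked nearer the top in p than in the size of its RED, without passing the threshold on p. The plus strand of chromosome 19 holds its PASs at 7978625 and 7979362, in exon 11 of 11, 1309 and 2046 nt past the stop codon. The short 3′ UTR keeps 64% of the long one, and the 737 nt between the PASs are close to the median of all genes (760 nt).

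MAP2K3, an activator of p38 kinases, had a RED of −0.46, a 1.38-fold lower ratio in OE-CFIm25, and the authors' adjusted p for it was 0.769. A lower RED was listed for 361 genes (13.3%), and a lower adjusted p for 499 (18.3%). Its PASs (chromosome 17, plus strand, 21218455 and 21218521, exon 12 of 12) are only 66 nt apart, at 913 and 979 nt past the stop codon. The short 3′ UTR thus keeps 93.3% of the long one. A narrower pair was found in 6.24% of genes, and of the 6 genes MAP2K3 alone had PASs under 100 nt apart, as 10.8% of all genes had. Over the table, RED was past the threshold in size in 51% of the 294 genes with PASs under 100 nt apart and in 48.9% of the 804 genes with PASs at least 1500 nt apart.

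MAP2K4, which can activate JNK and p38 kinases, had a RED of 0.17 (1.13-fold), with 0.983 as the authors' adjusted p. It differs in sign from the other MAP2Ks, and its RED lay inside the threshold. Its PASs (chromosome 17, plus strand, 12045259 and 12047047) stand in exon 11 of 11, 682 and 2470 nt past the stop codon. The 1788 nt between them are missing from the short isoform, which keeps 27.6% of the long 3′ UTR. Both PASs of MAP2K4 have a near-identical copy in the genome, and any effect of this on its RED was not tested. The 100 nt up to its pPAS match chromosome X at 98% identity over 100 nt, in MAP2K4P1 (72744111 to 72744210), a transcribed processed pseudogene of MAP2K4. The 100 nt up to its dPAS match chromosome X at 95% over 100 nt (72742324 to 72742423). The reads deposited as mapped were unique alignments, and reads that fit both places equally well would have been lost. Of the other genes, the dPAS of MAPK9 alone had a second match of at least 90 nt and 90% identity, on chromosome X at 90.1% over 101 nt (63777150 to 63777250).

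**Figure D2:**
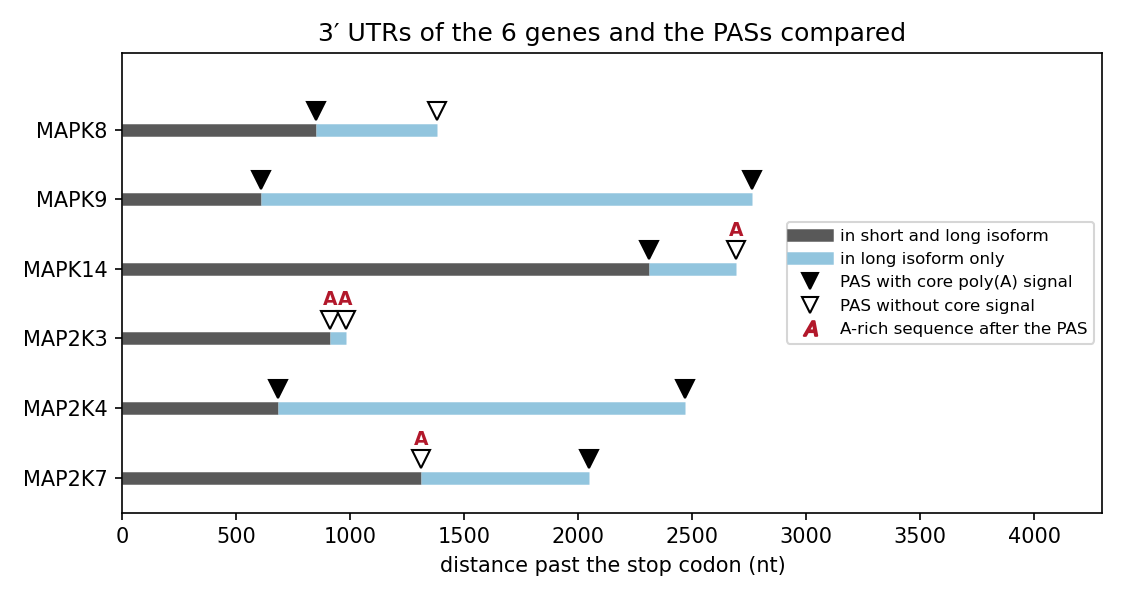
Last-exon 3′ UTRs of the 6 genes drawn to scale, as distance past the stop codon in nt. Dark bars are in the short and the long isoform, light bars in the long isoform only, filled triangles are PASs with AATAAA or ATTAAA in the 40 nt up to them, open triangles PASs without, and a red A marks A-rich sequence in the 20 nt after the PAS. MAPK9 and MAP2K4 lose the longest stretches (2157 and 1788 nt) in the short isoform, and MAP2K3 loses 66 nt.

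Many genes of the table had a RED as large as these kinases, and few of them had a low adjusted p. Of the 419 genes whose RED was at least as large in size as that of MAPK9, 10 were called (2.39%). For MAP2K7 it was 10 of 527 (1.9%), and for MAP2K3 10 of 656 (1.52%). The smallest RED of a called gene was 0.63 in size, above the REDs of all 6 kinases. In the range from 0.45 to 0.60 in size, which holds MAPK9, MAP2K3 and MAP2K7, the table lists 307 genes with adjusted p-values from 0.0826 to 0.978 (median 0.795). MAPK9 and MAP2K3 lay near that median and MAP2K7 below it. With a threshold of 0.10 on the adjusted p, 17 genes of the table (0.624%) would be called and still none of the 6.

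**Figure D3:**
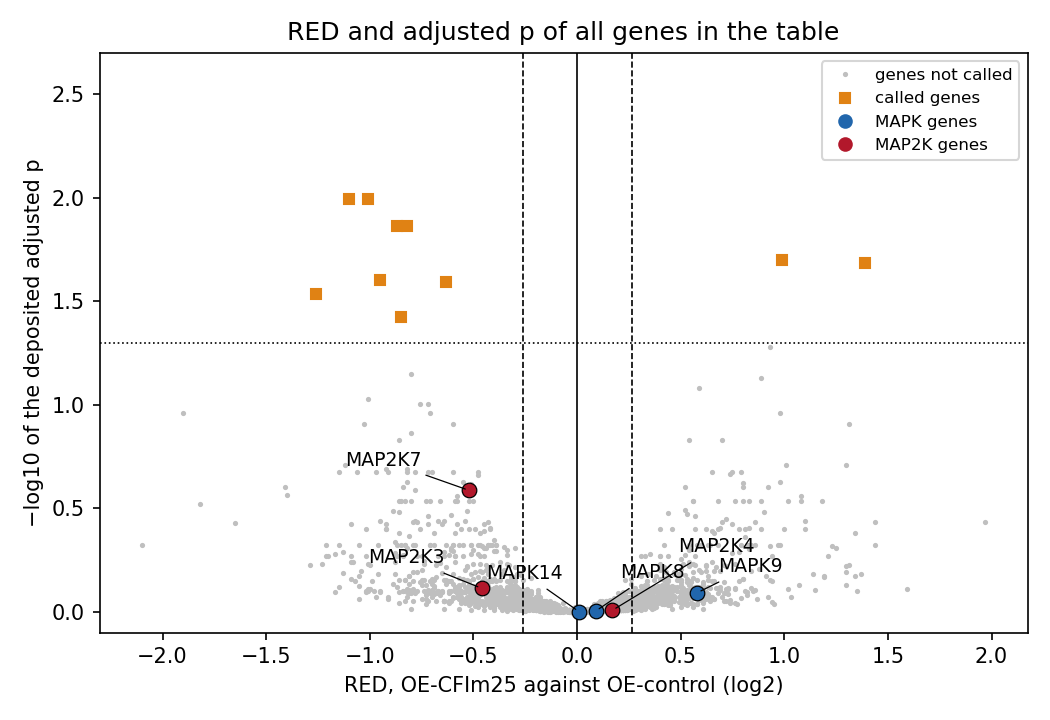
RED (log2, horizontal) against −log10 of the deposited adjusted p (vertical) for all 2723 genes. Orange squares are the 10 called genes, blue and red circles the MAPK and MAP2K genes, dashed lines the RED threshold and the dotted line an adjusted p of 0.05. MAP2K7 (RED −0.52) is the highest of the 6, and MAPK8, MAPK14 and MAP2K4 lie at the bottom near a RED of 0.

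The deposited p-values are adjusted, and unadjusted values were recovered from them under the assumption of Benjamini-Hochberg adjustment over this table, which gives an upper bound for tied genes. On that scale MAP2K7 had a p of 0.00561, and it was the only one of the 6 among the 248 genes (9.11%) that would be called at an unadjusted p under 0.05. MAP2K3 had a recovered p of 0.145 and MAPK9 one of 0.223. Those of MAP2K4 (0.827), MAPK8 (0.89) and MAPK14 (0.998) were higher still. Such a p takes no account of the 2723 genes compared.

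Poly(A) signals were searched on the transcribed strand, as AATAAA or ATTAAA in the 40 nt up to and including the PAS. They were found at 7 of the 12 PASs, at 4 of 6 pPASs (55.5% over the table) and 3 of 6 dPASs (80.3%). In MAPK8 the pPAS had AATAAA ending 16 nt upstream and the dPAS had none, nor any of 10 further single-base variants. MAPK9 had overlapping copies of AATAAA at its pPAS, the nearer ending 19 nt upstream, and AATAAA at its dPAS ending 31 nt upstream. In MAPK14 the pPAS alone had a signal (AATAAA, 17 nt upstream). MAP2K4 had ATTAAA ending 13 nt upstream of its pPAS and AATAAA ending 14 nt upstream of its dPAS. MAP2K7 had AATAAA 17 nt upstream of its dPAS and none at its pPAS, an arrangement shared by 34.9% of genes. A signal at both PASs, as in MAPK9 and MAP2K4, was found in 45.5% of genes and at neither, as in MAP2K3, in 9.66%. At the pPAS of MAP2K3 the variants AATATA and AAGAAA were present.

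A-rich sequence after the PAS, taken as 6 A in a row or at least 12 A among the next 20 nt, stood at 4 of the 12 PASs, and none of these 4 had a poly(A) signal. Both PASs of MAP2K3 were among them, with 8 A and a run of 6 after the pPAS and 18 A after the dPAS. The pPAS of MAP2K7 was followed by 15 A, and the dPAS of MAPK14 by 15 A. Over the table, 26.7% of pPASs and 10.2% of dPASs were followed by such sequence, 23.4% and 6.94% without a signal. For both PASs of a gene together the share was 3.67%, and MAP2K3 belongs to 65 genes with A-rich sequence after both PASs and a signal at neither. MAP2K7 and MAP2K3 had the lowest REDs of the 6 and were also the genes with A-rich sequence after the pPAS. Priming of oligo(dT) at these stretches was not tested. Over all genes, the median RED was −0.08 in the 728 genes with A-rich sequence after the pPAS and −0.01 in the 1995 genes without, and 46.7% and 49.6% of them were past the RED threshold in size. The dPAS of MAPK9 was followed by 10 A, short of the minimum, and the dPAS of MAPK8, with neither a signal nor A-rich sequence, by 6.

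CFIm25 binds UGUA in the RNA upstream of a PAS, and UGUA was counted on the transcribed strand, overlaps included, in the 100 nt up to each PAS. UGUA was present at 2 of 6 pPASs (49.4% over the table) and 4 of 6 dPASs (60%). In MAPK8 there were 0 at the pPAS and 2 at the dPAS, and MAP2K4 also had 0 and 2. MAP2K7 had 0 at the pPAS and 1 at the dPAS. The dPAS thus held more UGUA than the pPAS in 3 genes, as in 36.6% of all genes, and their REDs were 0.09, 0.17 and −0.52. The opposite order was found in MAPK9 (1 at the pPAS and 0 at the dPAS) and MAPK14 (2 and 1), as in 25.8% of genes. MAP2K3 had no UGUA at either. In this window MAPK9, with more UGUA at the pPAS, had the highest RED, and MAP2K7, with more at the dPAS, the lowest. The order of the PASs depended on the window in MAPK9 and MAPK14. With 60 nt MAPK9 had 0 at both PASs, and MAPK14 had 0 at the pPAS and 1 at the dPAS. With 200 nt MAPK14 had 2 at both. Whether RED goes with UGUA was not tested.

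The stretch between the PASs, present in the long isoform alone, varied in length and composition. Its AT content was below the median of all genes (62.7%) in each of the 6. It was 61.8% in MAPK8, 57.9% in MAPK9, 60.9% in MAPK14 and 60% in MAP2K4, and lowest in MAP2K3 (47%) and MAP2K7 (44.2%). AUUUA, the core of AU-rich elements, which proteins bind to control mRNA decay, was searched on the transcribed strand. It stood in the stretches of 5 of the 6 genes, against 68.7% of all genes, with 7 copies in MAPK9 and 2 each in MAPK8, MAPK14 and MAP2K4. MAP2K7 had 1 and MAP2K3 had 0. Per kb this was 5.25 in MAPK14, 3.77 in MAPK8 and 3.25 in MAPK9, above the 2.34 over all genes, and 1.36 in MAP2K7 and 1.12 in MAP2K4, below it. UGUA within the stretch came to 13.2 per kb in MAPK8, 7.87 in MAPK14 and 7.83 in MAP2K4, against 5.9 over all genes. It was lower in MAPK9 (3.71) and MAP2K7 (1.36), and the 66 nt of MAP2K3 held 0 copies.

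Genes that act before and after these kinases were described by 7 lists chosen by role, of which 28 genes were in the table. None of the 28 was called. In RED alone 8 were past the threshold on the negative side and 8 on the positive side, as were 27.1% and 21.7% of all genes. The median RED of the 28 was −0.055, with a range from −0.92 to 0.76, and their lowest adjusted p was 0.396. The MAP3Ks, which phosphorylate MAP2Ks, had 5 genes in the table with a median RED of −0.05. By the authors' table, MAP3K3 was at 0.37 (adjusted p = 0.769) and TAOK1 at −0.30 (adjusted p = 0.868). Of 3 MAP4Ks, which act before the MAP3Ks, MAP4K4 was listed by the authors at −0.57 (adjusted p = 0.474) and MAP4K2 at 0.16 (adjusted p = 0.981). The phosphatase DUSP4, which removes the activating phosphates of MAPKs, was the sole gene of its list, at a RED of 0.34 with the authors' adjusted p at 0.908.

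Among 5 scaffolds (median RED −0.06), SPAG9, which binds JNK and its upstream kinases, was listed by the authors at −0.54 (adjusted p = 0.759). LAMTOR3, a scaffold of the ERK chain on late endosomes, was at 0.56 in the authors' table (adjusted p = 0.917). Of 4 kinases activated by MAPKs (median −0.095), the authors' values were −0.41 for RPS6KA3 (RSK2, adjusted p = 0.71) and 0.33 for MAPKAPK3, a substrate of p38 (adjusted p = 0.848). The 5 transcription factor genes, targets of MAPKs, had the lowest median of the 7 lists, −0.28. Of them, 3 were past the threshold on the negative side (27.1% of all genes) and 1 on the positive side (21.7%). The authors' RED was −0.92 for ELK4, a ternary complex factor (adjusted p = 0.396), and 0.76 for MEF2D, a target of p38 (adjusted p = 0.584). Of 5 genes of the PKC, RAS and RAC inputs (median 0.23), the adaptor GRB2 was at −0.34 (adjusted p = 0.53) and the GTPase RAC1 at 0.50 (adjusted p = 0.554), both from the authors' table. At each level with more than 1 gene in the table, REDs lay on both sides of 0, except for the 3 MAPKs described here.

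**Figure D4:**
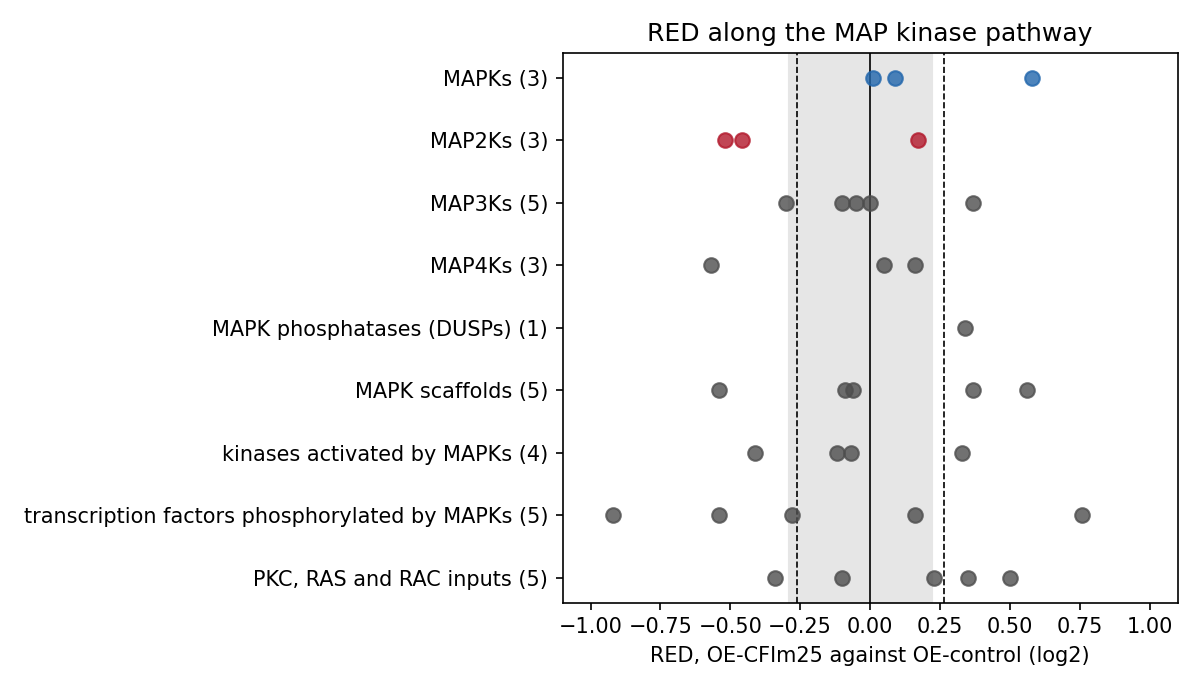
RED (log2) of the MAPK and MAP2K genes and of 7 lists of genes that act before or after them, 1 point per gene, with the number of genes in the table in brackets. The grey band is the range from the lower to the upper quartile of all genes (−0.29 to 0.22) and the dashed lines the RED threshold. Points spread from −0.92 (ELK4) to 0.76 (MEF2D), and none of them was called.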

How the data were processed

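The authors trimmed read 2 of the QuantSeq FWD libraries, aligned it with STAR 2.7.7a (submitters' processing notes) to hg19, kept alignments from 100 nt upstream to 25 nt downstream of PolyA_DB PASs, and took those ending no more than 24 nt from one. They deposited counts of such reads per library, and per gene a RED on the log2 scale and an adjusted p-value, both columns of their own comparison and the only measurements given, so they were used as the authors' values. The way p was adjusted is not stated there. After 1 repeated row was dropped, 2723 genes remained.

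From these values, calls, ranks and counts were computed with Python 3.11.15, numpy 2.4.6 and matplotlib 3.10.9. Sequence came from GRCh37, the build of hg19, and annotation from GENCODE release 44 mapped to GRCh37. To check that both builds match, AATAAA or ATTAAA was also searched 140 to 180 nt upstream, where 3.38% of pPASs and 6.57% of dPASs had it. Window functions were tested on simulated data. Copies were searched with blastn 2.17.0, with the 100 nt up to each PAS as query.

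The genes and lists were chosen with earlier results of these data known, and the search for copies, the distance classes and the range of RED sizes after the values were seen. Named are the 6 genes and, per list, the 2 genes of lowest adjusted p. Some related genes are not reported here. The alternatives were other thresholds on RED and p, the table median subtracted, other sequence windows, and sets without close or A-rich PASs. Filters on low reads, replicate blocks and leaving out a sample could not be run without values per sample.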

Additional observations from a re-analysis of the deposited data

How the results depend on the processing

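The count of 0 called kinase genes held without a threshold on RED, at log2(1.5), at an adjusted p under 0.10 and with the table's median subtracted. None of these settings could have changed that count, since the lowest deposited adjusted p of the 6 was 0.259 (MAP2K7). With recovered unadjusted p under 0.05 the count became 1 (MAP2K7), and that of the other pathway genes went from 0 to 3 (ELK4, MAP4K4 and GRB2, with recovered p-values of 0.0183, 0.0336 and 0.0438), of 6 and 28 genes, where 9.11% of all genes would be called. The median RED of the kinase genes, 0.05, was near 0 and moved with the set. It was −0.022 as a mean, 0.09 over the 5 genes with PASs at least 100 nt apart, 0.17 over the 3 genes with no A-rich sequence after either PAS, and 0.08 after the table's median was subtracted. At log2(1.5), 0 genes in place of 3 were past the RED threshold in size. The median difference in UGUA, dPAS minus pPAS, was 0.5 with windows of 100 or 200 nt and 1 with 60 nt. Poly(A) signals were found at 7 PASs with 50 nt and at 8 with further variants, and 4 PASs were A-rich under each definition. With 10 A of 20 nt, however, the dPAS of MAPK9 took the place of the pPAS of MAP2K3. Median PAS reads per library were 3579375 to 3626649 with each library left out and 3627663 from read 1. No paired analysis was possible because values per sample were not given. The reads behind each PAS are unknown, so a small RED cannot be told from one measured with few reads.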
